A study of Sus scrofa with 14 samples.

Results

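The genes described here mark T and B lymphocytes in fat. They are 9 of the 21280 protein-coding genes measured by RNA-seq, taken by their pig symbol: the T cell genes CD3D, CD3E, CD2, CD4 and CD8A, and the B cell genes CD79A, CD79B, MS4A1 and PAX5. RNA came from whole adipose tissue of wild boars and Bama pigs, all females 2 years of age, with no treatment. The wild boars were born in the wild and raised in captivity, and the Bama pig is a fat indigenous breed of South China. In both breeds the greater omentum (GOM), a visceral depot, was compared with the upper layer of backfat (ULB), a subcutaneous depot. Each depot of the wild boars gave 2 libraries, the GOM of the Bama pigs also 2, and their ULB 1, and the other Bama pig ULB library of the study was not used here. Both depots were collected from the same animals, 2 of each breed, so a breed is represented by 2 pigs.

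T cells recognise antigen through a receptor that signals through the CD3 chains. The co-receptors CD4 and CD8 are known from helper and from cytotoxic T cells, in that order. CD2 is an adhesion receptor of T cells and natural killer (NK) cells. B cells signal through a receptor whose signalling chains are CD79A and CD79B. MS4A1 encodes the surface protein CD20 of mature B cells, and PAX5 is the transcription factor that maintains B cell identity and is shut off in plasma cells, the cells that secrete antibody. The greater omentum is known for milky spots, small aggregates of lymphocytes and macrophages beneath the mesothelium, the cell layer that covers the organ.

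In Sscrofa11.1 the 9 genes lie on 8 chromosomes. CD3E (chr9:45619730-45633972, plus strand) and CD3D (chr9:45640475-45644153, minus strand) are neighbours 6502 bases apart. CD2 lies at chr4:103963802-103976971, CD4 at chr5:63892129-63918547 and CD8A at chr3:57999228-58029768. CD79A lies at chr6:49996116-49999294 and ends 673 bases before ARHGEF1 on the same strand. CD79B lies at chr12:15052966-15056441, MS4A1 at chr2:11216238-11229060 and PAX5 at chr1:237574938-237785454. MS4A1 overlaps MS4A4A, a gene of the opposite strand, by 2915 bases. The libraries kept the strand, but kallisto was run with its default settings, which do not use it, so part of the reads of these overlapping genes may not be told apart.

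The promoters of CD3E and CD2 are shown as examples of the T cell genes, whose levels moved together. This pair had a Pearson r of 0.76 over the 7 libraries, near the low end of the T cell pairs (0.75 to 0.95). Those of CD79A and CD79B are shown because these 2 chains of one receptor were measured at very different levels. Each sequence is the 250 bases before the gene start annotated by RefSeq on Sscrofa11.1, read 5′ to 3′ on the strand of the gene. Capitals mark 5 motifs known from lymphocyte promoters, searched on both strands: ETS, RUNX, GATA, octamer and EBF, whose letters are given with the counts after the sequences.
CD3E, chr9:45619480-45619729, plus strand: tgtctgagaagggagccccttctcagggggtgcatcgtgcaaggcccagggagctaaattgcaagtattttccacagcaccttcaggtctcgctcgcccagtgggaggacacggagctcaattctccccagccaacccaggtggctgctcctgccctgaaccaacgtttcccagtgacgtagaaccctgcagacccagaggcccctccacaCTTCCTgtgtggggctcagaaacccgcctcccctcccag
CD2, chr4:103976972-103977221, minus strand: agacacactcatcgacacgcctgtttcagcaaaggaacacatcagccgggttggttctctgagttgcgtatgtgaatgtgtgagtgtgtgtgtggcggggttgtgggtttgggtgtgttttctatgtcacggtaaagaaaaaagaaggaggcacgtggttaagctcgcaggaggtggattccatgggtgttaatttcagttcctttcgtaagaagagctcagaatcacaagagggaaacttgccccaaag
CD79A, chr6:49999295-49999544, minus strand: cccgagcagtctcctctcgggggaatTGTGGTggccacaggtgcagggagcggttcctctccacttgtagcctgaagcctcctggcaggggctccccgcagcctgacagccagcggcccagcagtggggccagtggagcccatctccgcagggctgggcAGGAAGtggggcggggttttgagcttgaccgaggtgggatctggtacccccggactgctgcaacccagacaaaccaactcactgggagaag
CD79B, chr12:15052716-15052965, plus strand: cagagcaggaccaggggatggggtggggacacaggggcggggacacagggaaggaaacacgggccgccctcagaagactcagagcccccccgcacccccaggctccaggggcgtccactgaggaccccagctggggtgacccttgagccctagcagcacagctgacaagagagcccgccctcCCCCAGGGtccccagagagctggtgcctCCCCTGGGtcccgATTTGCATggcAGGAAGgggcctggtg
The ETS motif, AGGAAG, was present in 2 of 4 T cell promoters searched (CD3E and CD8A) and in 3 of the 4 B cell promoters (CD79A, CD79B and PAX5), against 25.0% of 19531 promoters of protein-coding genes. The RUNX motif, TGTGGT, was found in CD4 and CD79A, against 13.9% of all promoters. The octamer ATTTGCAT, known from immunoglobulin promoters, was found in CD79B, against 1.2% of all promoters. The EBF motif, CCCNNGGG, occurred at 2 positions in each of CD79B and MS4A1, against 17.3% of all promoters. The GATA motif, AGATAA, was in none of the 8 windows and in 8.1% of all promoters. The CD2 window held none of the 5 motifs. These are matches of letters and not measured binding sites.

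The sum of estimated counts was lowest in the Bama pig ULB library, at 10833153, and highest in Bama pig GOM library 1, at 18627076. Adipocyte genes were high in all 7 libraries, with summed levels of 9121.2 to 16936.9 TPM, a level scaled for transcript length and library size. Mesothelial genes summed to 171.9 to 560.0 TPM in the GOM and to 3.0 to 17.5 TPM in the ULB. Wild boar ULB library 1 held 290.9 TPM of skeletal muscle genes, against 2.0 to 6.4 TPM in the other 6 libraries. Liver genes reached 1340.1 TPM in Bama pig GOM library 2, and erythroid genes were highest, at 12633.5 TPM, in wild boar GOM library 2. Between the depots edgeR called no adipocyte, endothelial, lymphatic endothelial, liver, skeletal muscle, pancreas or erythroid gene of the lists. DESeq2 called 3 erythroid, 2 muscle, 1 liver and 1 adipocyte gene, and an unadjusted p below 0.05 was found for 4, 2, 1 and 1 of these and for 3 lymphatic endothelial genes. The part of these differences in the results below was not tested. TPM carried a shift between the breeds: over 11279 genes the median log2 difference of wild boar minus Bama pig in the GOM was -0.48 on TPM and 0.12 on TMM-normalized counts. For GOM minus ULB it was 0.15 on TPM and 0.06 on normalized counts. Differences were therefore tested on counts, and TPM is given as the level.

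Transcripts of all 5 T cell genes were detected in each library, and all 5 had a higher mean level in the GOM than in the ULB. CD2 was the highest of the 5. It had TPM values of 21.37 and 20.40 in the GOM of Bama pig, 14.78 and 6.80 in that of wild boar, 4.90 and 4.70 in the ULB of wild boar and 3.21 in that of Bama pig. Every GOM library was above every ULB library. The mean was 15.84 ± 6.69 TPM (SD, n = 4) in the GOM and 4.27 ± 0.92 TPM (SD, n = 3) in the ULB.

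CD3D and CD3E, which encode chains of the T cell receptor complex, were at similar levels. CD3D had 6.56 and 10.22 TPM in the GOM of Bama pig, 6.62 and 3.10 in that of wild boar, 2.39 and 2.44 in the ULB of wild boar and 2.54 in that of Bama pig. The 3 ULB libraries were almost equal, and all 4 GOM libraries were above them. CD3E had 11.15 and 5.22 TPM in the GOM of Bama pig, 7.77 and 2.06 in that of wild boar, 2.02 and 1.43 in the ULB of wild boar and 4.06 in that of Bama pig. For CD3E the depots overlapped, because wild boar GOM library 2 was below the Bama pig ULB library.

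The co-receptor of helper T cells, CD4, was the lowest of the T cell genes in the ULB. CD4 had 3.01 and 2.40 TPM in the GOM of Bama pig, 5.44 and 1.86 in that of wild boar, 0.54 and 0.69 in the ULB of wild boar and 0.67 in that of Bama pig. The depots did not overlap, with 48 to 133 estimated counts in the GOM and 13 to 16 in the ULB. CD8A encodes a chain of the co-receptor known from cytotoxic T cells. It had 7.84 and 6.16 TPM in the GOM of Bama pig and 3.71 and 1.85 in that of wild boar. In the ULB it had 0.95 and 1.30 TPM in wild boar and 2.24 in Bama pig. CD8A overlapped between the depots across breeds, since the Bama pig ULB library was above wild boar GOM library 2, but within each breed every GOM library was above the ULB. In TPM, wild boar GOM library 2 was the lowest GOM library for all 5 T cell genes. In normalized counts it was the lowest for all but CD4, for which both Bama pig GOM libraries were lower.

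**Figure D1:**
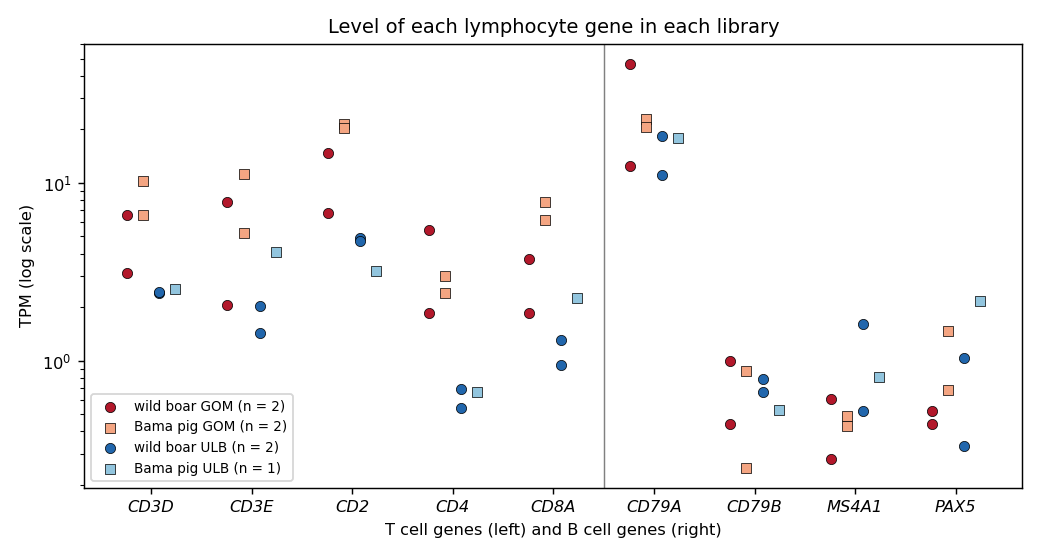
Level of the 9 lymphocyte genes in each of the 7 libraries, in TPM on a log axis, with T cell genes on the left and B cell genes on the right. Each point is 1 library, red tones are GOM and blue tones ULB, circles wild boar and squares Bama pig. For CD3D, CD2 and CD4 all 4 GOM points are above the 3 ULB points, whereas the depots overlap for each B cell gene.

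The comparison of depots across both breeds asked whether these genes differed between visceral and subcutaneous fat. It was fitted over 7 libraries with breed as a covariate and did not pair the depots of an animal. In this fit 17931 genes were tested two-sided by the quasi-likelihood method of edgeR. A gene counted as called when its p, adjusted over all genes after Benjamini and Hochberg, was below 0.05 and its log2 fold change was above 1 in size. CD2 rose in the GOM, with a log2 fold change of 1.70 (standard error, SE, 0.36, adjusted p = 0.027 from edgeR). The log2 fold change of CD4 was larger, 2.25 (SE 0.54), but its adjusted p of 0.0503 from edgeR missed the threshold. CD8A had 1.37 (SE 0.38, adjusted p = 0.0851), CD3D 1.24 (SE 0.38, adjusted p = 0.112) and CD3E 1.18 (SE 0.54, adjusted p = 0.271), all from edgeR and not called. Thus 1 of 5 T cell genes was called, against 2.28% of all genes called higher in the GOM. With DESeq2, 4 of the 5 were called (all but CD3E), against 4.52% of all genes. The normalized counts of 3 of the 5 (CD3D, CD2 and CD4) did not overlap between the depots, against 7.97% of all genes in this direction. The median log2 fold change of the 5 genes was 1.37, and that of all tested genes was 0.04. The call of CD2 was lost without Bama pig ULB library 2 (log2 fold change 1.33), wild boar GOM library 1 (1.54), wild boar ULB library 1 (1.84) or wild boar ULB library 2 (1.71), and also with limma on log2(TPM + 0.1) (1.69) or log2(TPM + 1) (1.51), while its direction stayed the same. In bulk tissue, fewer cells of a type and less RNA per cell cannot be told apart.

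**Figure D2:**
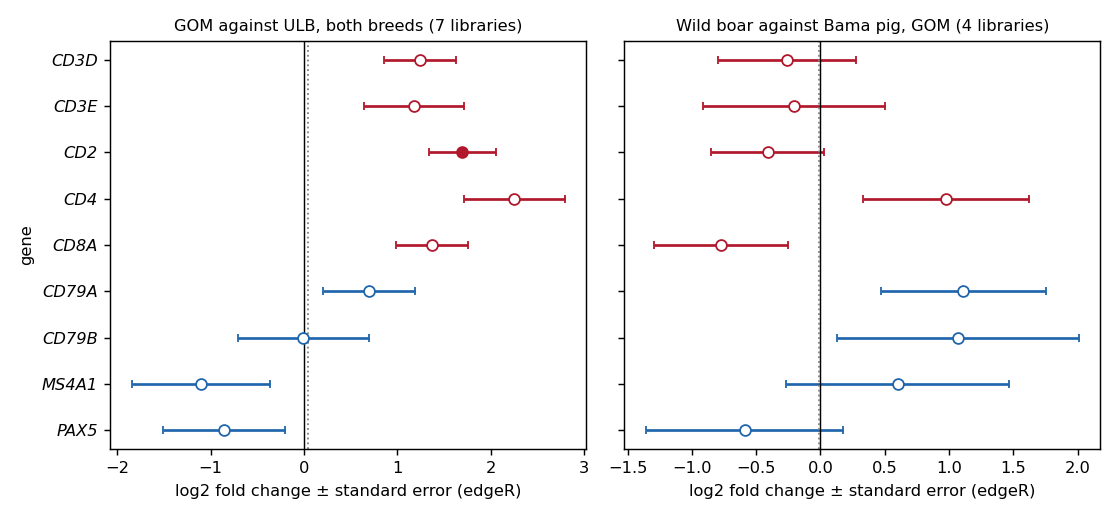
Log2 fold changes of the 9 genes with standard errors, from edgeR, for GOM against ULB across both breeds (left, 7 libraries) and for wild boar against Bama pig in the GOM (right, 4 libraries). T cell genes are red, B cell genes blue, a filled point was called, and the dotted line is the median of all tested genes. On the left the 5 T cell genes lie between 1.18 and 2.25 and the B cell genes between -1.10 and 0.70, and on the right both sets lie on both sides of 0.

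Further T cell genes pointed the same way as the members, with few calls. Of 24 other T cell genes, 20 were listed and tested, and 19 of these had a positive log2 fold change (median 1.27). None was called by edgeR, 8 had an unadjusted p below 0.05 (18.9% of all genes had one), and DESeq2 called 4 (CD5, CD6, LCK and IL7R, named after their values were seen). Of all genes 2.28% were called higher in the GOM by edgeR and 4.52% by DESeq2. The depots did not overlap for 10 of the 20, against 7.97% of all genes. CD247, the zeta chain of the T cell receptor complex, had the highest mean level of the list at 37.85 TPM, and its log2 fold change was 0.61 (adjusted p = 0.267 from edgeR). LCP2, an adaptor of T cell receptor signalling, had 0.59 (adjusted p = 0.473 from edgeR) at a mean of 22.14 TPM.

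Cytotoxic T and NK cell genes were positive in 16 of 16 tested rows (15 symbols, since GZMA has 2 identifiers), with a median log2 fold change of 1.21. The call was made for 2 of them by edgeR and for 5 by DESeq2 (also GZMA, TBX21 and CTSW, named after their values were seen), against 2.28% and 4.52% of all genes in this direction. The depots did not overlap for 7, against 7.97% of all genes. CD244, a receptor of NK cells and cytotoxic T cells, had 5.89 and 7.16 TPM in the GOM of Bama pig, 12.09 and 5.88 in that of wild boar, 1.48 and 1.66 in the ULB of wild boar and 1.50 in that of Bama pig. It rose in the GOM by a log2 fold change of 2.29 (SE 0.43, adjusted p = 0.0158 from edgeR). GZMH, a granzyme of cytotoxic granules, had 6.64 to 12.18 TPM in the GOM and 1.56 to 2.97 TPM in the ULB. It also rose, by a log2 fold change of 1.98 (SE 0.47, adjusted p = 0.0492 from edgeR).

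Genes of leukocytes as a whole also had higher values in the GOM. All 9 pan-leukocyte genes tested had a positive log2 fold change (median 1.20), and 9 had an unadjusted p below 0.05, against 18.9% of all genes. Of these 9 genes 3 were called by edgeR and 4 by DESeq2 (CORO1A as well, named after its values were seen), against 2.28% and 4.52% of all genes in this direction. The called genes were ITGB2, the integrin beta chain of leukocytes (log2 fold change 1.71, adjusted p = 0.0049 from edgeR), RAC2, a GTPase of blood cells (1.70, adjusted p = 0.0176 from edgeR), and CD53, a leukocyte tetraspanin (1.29, adjusted p = 0.0467 from edgeR). The summed level of the 9 genes was 416.6 to 815.3 TPM in the GOM and 211.5 to 277.3 TPM in the ULB. The 9 macrophage markers were also all positive (median 1.37), with a sum of 622.1 to 1416.5 TPM in the GOM and 417.8 to 625.8 TPM in the ULB. Of them MARCO, a scavenger receptor, was called, with 3.48 to 63.37 TPM in the GOM and at most 0.63 TPM in the ULB (log2 fold change 5.18, adjusted p = 0.0135 from edgeR). Of 5 mesothelial genes tested, 4 were called, and the largest changes were those of WT1, BNC1 and UPK1B, with log2 fold changes of 8.79, 7.67 and 7.25. The part of leukocyte, macrophage and mesothelial content in the values of the T cell genes was not tested.

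To set the T cell genes beside leukocyte content, their TPM was divided by that of PTPRC, which encodes CD45, a surface phosphatase of all leukocytes. PTPRC itself had 90.17 and 64.97 TPM in the GOM of Bama pig, 52.51 and 30.04 in that of wild boar, 22.55 and 28.01 in the ULB of wild boar and 25.05 in that of Bama pig. Its log2 fold change between depots was 1.02 (SE 0.25, adjusted p = 0.0536 from edgeR). Per 100 TPM of PTPRC, CD2 had 22.6 to 31.4 TPM in the GOM and 12.8 to 21.7 TPM in the ULB. CD4 had 3.34 to 10.4 TPM in the GOM and 2.41 to 2.66 TPM in the ULB per 100 TPM of PTPRC. The depots did not overlap for these 2 of the 5 genes, against 1.57% of all genes whose TPM over that of PTPRC was higher in every GOM library. Relative to PTPRC the depots overlapped for CD3D (7.27 to 15.7 TPM in the GOM, 8.71 to 10.6 in the ULB), for CD3E (6.86 to 14.8 and 5.09 to 16.2) and for CD8A (6.17 to 9.48 and 4.21 to 8.92).

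The B cell genes gave no call between the depots. CD79A was the most abundant of the 9 genes, and the other 3 were the least abundant. CD79A had 22.73 and 20.67 TPM in the GOM of Bama pig, 12.43 and 46.49 in that of wild boar, 11.00 and 18.29 in the ULB of wild boar and 17.92 in that of Bama pig. Wild boar GOM library 2 stood above the rest, with 1059 estimated counts against 203 to 421 in the other 6 libraries, and the depots overlapped. In TPM, wild boar GOM library 2 was thus the highest library for CD79A and the lowest GOM library for each T cell gene. In normalized counts the latter did not hold for CD4.

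CD79B, the partner of CD79A in the receptor, had 0.25 and 0.87 TPM in the GOM of Bama pig, 0.44 and 0.99 in that of wild boar, 0.79 and 0.67 in the ULB of wild boar and 0.53 in that of Bama pig. These levels rest on 3 to 13 estimated counts per library. The lowest count, 3 in Bama pig GOM library 1, has an exact Poisson 95% interval of 0.62 to 8.77 counts, and the highest, 13 in wild boar GOM library 2, one of 6.92 to 22.23, both covering counting error alone. The TPM of CD79A was 13.9 to 92.1 times that of CD79B in the 7 libraries.

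MS4A1 had 0.43 and 0.49 TPM in the GOM of Bama pig, 0.28 and 0.61 in that of wild boar, 1.61 and 0.52 in the ULB of wild boar and 0.81 in that of Bama pig, from 4 to 23 estimated counts. PAX5 had 1.46 and 0.68 TPM in the GOM of Bama pig, 0.52 and 0.44 in that of wild boar, 1.03 and 0.33 in the ULB of wild boar and 2.17 in that of Bama pig, from 6 to 35 estimated counts. For both genes the libraries with the most counts were ULB libraries, and the depots overlapped.

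Between the depots none of the 4 B cell genes was called by edgeR or DESeq2, none had an unadjusted p below 0.05, and none was free of overlap. Of all genes 2.28% were called higher in the GOM by edgeR and 4.52% by DESeq2. An unadjusted p below 0.05 was found for 18.9%, and 7.97% were higher in every GOM library. With 4 genes, the absence of a call is near these shares. The log2 fold change was 0.70 for CD79A (SE 0.49, adjusted p = 0.472), -0.01 for CD79B (SE 0.70, adjusted p = 0.995), -1.10 for MS4A1 (SE 0.74, adjusted p = 0.449) and -0.86 for PAX5 (SE 0.65, adjusted p = 0.506), all from edgeR. Without wild boar GOM library 2, the value of CD79A turned to -0.15. The median of the 4 genes was -0.43. The values of CD79B, MS4A1 and PAX5 rest on 3 to 35 counts per library, and the intervals of the lowest and the highest count of CD79B overlapped.

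Of 17 other B cell genes, 16 were in the table and 15 were tested, 11 with a positive log2 fold change (median 0.72). Of these edgeR called 2 and DESeq2 called 3 (FCRL1 as well), against 2.28% and 4.52% of all genes in this direction. The depots did not overlap for 4 of them, against 7.97% of all genes. CD180, a Toll-like receptor homologue of B cells and myeloid cells, had 5.06 and 2.94 TPM in the GOM of Bama pig, 3.87 and 1.92 in that of wild boar, 0.56 and 0.62 in the ULB of wild boar and 0.65 in that of Bama pig. CD180 rose by a log2 fold change of 2.34 (SE 0.49, adjusted p = 0.0264 from edgeR). BTK, a kinase of B cell receptor signalling that myeloid cells also use, had 10.55 to 16.50 TPM in the GOM and 3.67 to 6.78 TPM in the ULB (log2 fold change 1.41, adjusted p = 0.0247 from edgeR). Both called genes are thus also known from myeloid cells.

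Plasma cell genes were represented by 9 genes, 6 of them positive (median 0.28), and edgeR called JCHAIN alone. JCHAIN, the chain that joins IgA and IgM into polymers, had 189.83 and 183.76 TPM in the GOM of Bama pig, 99.57 and 246.96 in that of wild boar, 46.28 and 61.56 in the ULB of wild boar and 19.28 in that of Bama pig. It rose in the GOM by a log2 fold change of 2.30 (SE 0.39, adjusted p = 0.0102 from edgeR). JCHAIN and CD79A were both highest in wild boar GOM library 2, and the ratio of JCHAIN to CD79A was 5.31 to 8.89 in the GOM and 1.08 to 4.21 in the ULB.

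Of 6 transcription factors of the B lineage other than PAX5, 5 were positive (median 0.72), edgeR called none, 2 had an unadjusted p below 0.05 and DESeq2 called 1, IKZF1, named after its values were seen. Of all genes 18.9% had such a p. The cells that gave the IKZF1 transcripts were not identified. EBF1, which is also known from adipocytes, had a mean of 127.44 TPM and a log2 fold change of -0.48 (adjusted p = 0.323 from edgeR), and TCF3 a mean of 10.64 TPM and 0.23 (adjusted p = 0.728 from edgeR). Of 6 germinal centre genes 3 were positive (median -0.03), edgeR called none, 1 had an unadjusted p below 0.05 and DESeq2 called 1, MYBL1, lower in the GOM and likewise named afterwards. BCL6, a transcriptional repressor that germinal centre B cells express, had a mean of 31.50 TPM and a log2 fold change of -0.39 (adjusted p = 0.518 from edgeR). TOP2A, a topoisomerase of dividing cells, had a mean of 4.53 TPM and 0.78 (adjusted p = 0.397 from edgeR).

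**Figure D3:**
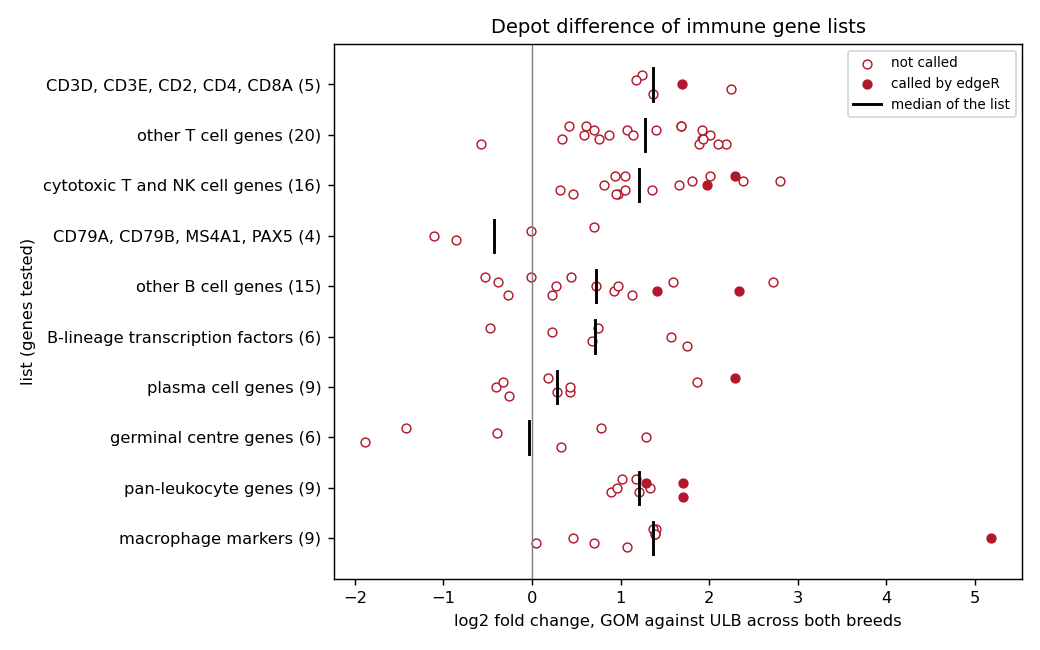
Log2 fold changes of GOM against ULB across both breeds for the tested genes of 10 immune gene lists, with the number of genes tested in parentheses. Each point is 1 gene, filled where edgeR called it, and the black bar is the median of the list. The medians are 1.37 for the 5 T cell genes, 1.27 and 1.21 for the other T cell and the cytotoxic lists, and -0.43 for the 4 B cell genes.

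Next, wild boar was compared with Bama pig within the GOM, 2 libraries against 2. No lymphocyte gene was called by edgeR or DESeq2, and none had an unadjusted p below 0.05. Over all 16615 genes edgeR called 0.0241% and DESeq2 1.01%, and 8% had such a p. Among the T cell genes 1 of 5 had a positive log2 fold change (wild boar higher), and the median was -0.26. The values were 0.98 for CD4 (SE 0.65, adjusted p = 0.677), -0.77 for CD8A (SE 0.52, adjusted p = 0.683), -0.41 for CD2 (SE 0.44, adjusted p = 0.786), -0.26 for CD3D (SE 0.54, adjusted p = 0.899) and -0.21 for CD3E (SE 0.71, adjusted p = 0.944), all from edgeR. In TMM-normalized CPM, counts scaled to library size, taken over the 4 GOM libraries, both Bama pig libraries were above both wild boar libraries for CD2 and CD8A, 2 of 5 T cell genes, and for PAX5, 1 of 4 B cell genes, against 22.1% of all genes in this direction. For CD2 and PAX5 the gap was narrow, with 23.11 against 23.05 CPM and 0.716 against 0.703 CPM for the nearest libraries, and both overlapped when the normalization was taken over all 7 libraries. CD4 went the other way under both normalizations, with 9.35 and 3.84 CPM in wild boar and 3.57 and 3.12 CPM in Bama pig over the 4 libraries, and was 1 of 5 T cell genes, against 18.8% of all genes in that direction. The wild boar spread was wide for CD2, with 10.79 ± 5.64 TPM (SD, n = 2) against 20.89 ± 0.68 TPM (SD, n = 2) in Bama pig. For CD4 the SD was 2.53 TPM in wild boar and 0.43 TPM in Bama pig. In the same order the SDs were close for CD3D (2.5 and 2.59 TPM), CD3E (4.04 and 4.2 TPM) and CD8A (1.31 and 1.18 TPM). Transcripts of other tissues also differed between the breeds in the GOM. Of 7 liver transcripts tested, 6 were lower in wild boar with an unadjusted p below 0.05 (median log2 fold change of the 7 -4.83, 1 called by edgeR and 4 by DESeq2). All 4 erythroid transcripts were higher in wild boar with an unadjusted p below 0.05 (median 4.12, none called by edgeR and 3 by DESeq2). Their part in the values of the lymphocyte genes was not tested.

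The B cell genes were no clearer. The log2 fold change of wild boar against Bama pig in the GOM was 1.11 for CD79A (SE 0.64, adjusted p = 0.649), 1.07 for CD79B (SE 0.94, adjusted p = 0.745), 0.60 for MS4A1 (SE 0.87, adjusted p = 0.841) and -0.59 for PAX5 (SE 0.77, adjusted p = 0.824), all from edgeR. Without wild boar GOM library 2 the value of CD79A turned to -0.36. In the ULB, where Bama pig had 1 library, which was assumed to vary like the others, no lymphocyte gene was called by edgeR or DESeq2 and none had an unadjusted p below 0.05. All genes gave 0.279% calls by edgeR and 2.25% by DESeq2 there. The log2 fold changes ranged from -1.74 for PAX5 (SE 0.98, adjusted p = 0.436 from edgeR) to 0.47 for CD2 (SE 0.53, adjusted p = 0.679 from edgeR).

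The balance of CD4 and CD8A differed between the libraries of the breeds, a ratio that was chosen after its values were seen and was not tested. It is a ratio of transcripts in bulk tissue and not a count of helper and cytotoxic cells. The TPM of CD4 was 1.47 and 1.00 times that of CD8A in wild boar GOM and 0.573 and 0.530 times in wild boar ULB. In Bama pig it was 0.384 and 0.390 times in the GOM and 0.298 times in the ULB. All 4 wild boar libraries were above all 3 Bama pig libraries, and within each breed the GOM was above the ULB. The depots of a breed came from the same pigs, so these libraries are not separate animals. The ratio of CD4 to CD3E overlapped between the breeds, with 0.270 to 0.904 in wild boar and 0.164 to 0.461 in Bama pig. That of CD8A to CD3E also overlapped, with 0.470 to 0.911 and 0.550 to 1.18. Per 100 TPM of PTPRC, CD8A did not overlap, with 4.21 to 7.06 TPM in wild boar and 8.69 to 9.485 in Bama pig. The other lymphocyte genes overlapped between the breeds on that scale. The share of all genes free of overlap between the breeds was not computed there. CD4 overlapped on that scale, with 2.41 to 10.4 and 2.66 to 3.70. These ratios were not tested either.

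**Figure D4:**
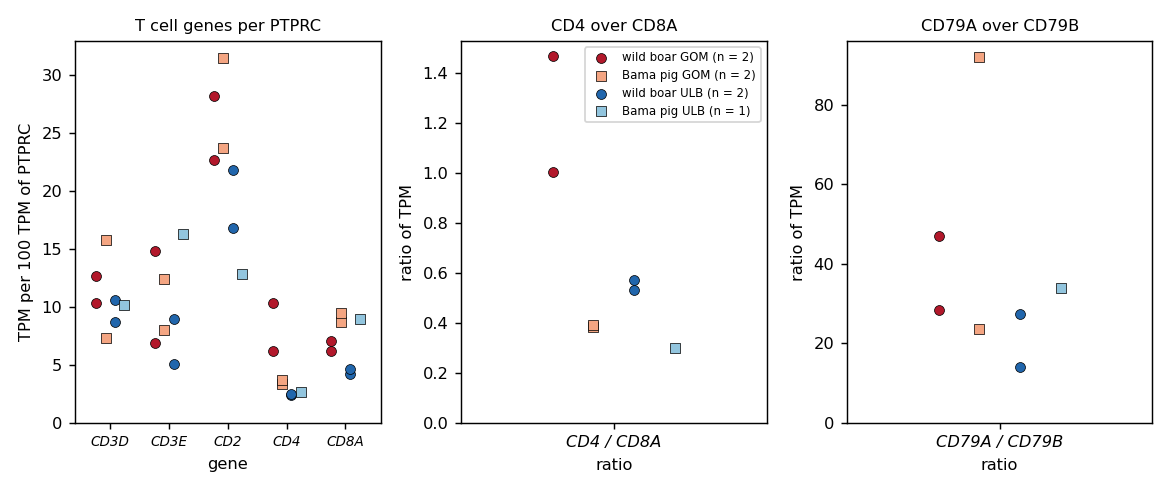
Ratios of TPM within each library: the 5 T cell genes per 100 TPM of PTPRC (left), CD4 over CD8A (middle) and CD79A over CD79B (right). Each point is 1 library, red tones are GOM and blue tones ULB, circles wild boar and squares Bama pig. The 4 wild boar points of CD4 over CD8A are at 0.530 or above and the 3 Bama pig points at 0.390 or below, while CD79A over CD79B runs from 13.9 to 92.1 with overlap of depots and breeds.

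The depot difference was then taken within each breed, in a fit that did not pair the depots of an animal. In wild boar all 5 T cell genes had a positive log2 fold change and an unadjusted p below 0.05, which 14.3% of all genes had, and edgeR called none, against 1.47% of all genes. CD4 had the largest value, 2.77 (SE 0.67, adjusted p = 0.0934 from edgeR), and DESeq2 called this 1 of the 5, against 5.37% of all genes. CD3E had 1.66, CD8A 1.51, CD2 1.37 and CD3D 1.22. CD79A had 1.34 (SE 0.59, adjusted p = 0.348 from edgeR), which turned to -0.089 without wild boar GOM library 2. The other B cell genes had 0.30 (CD79B), -0.34 (PAX5) and -0.97 (MS4A1).

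In Bama pig, with 1 ULB library, edgeR called no lymphocyte gene, against 0.53% of all genes, and 1 T cell gene, CD2, had an unadjusted p below 0.05 and was called by DESeq2. Of all genes 11.0% had such a p and DESeq2 called 2.87%. The log2 fold change of CD2 was 2.23 (SE 0.57, adjusted p = 0.165 from edgeR). CD4 had 1.48, CD3D 1.27, CD8A 1.16 and CD3E 0.52. All 4 B cell genes were below 0, from -0.20 for CD79A down to -1.50 for PAX5. The depot difference in wild boar minus that in Bama pig was itself tested, and edgeR called 0% of all genes, while 834 had an unadjusted p below 0.05 and DESeq2 called 52 (0.29%). For the lymphocyte genes it ran from -0.86 for CD2 (SE 0.67, adjusted p = 0.981 from edgeR) to 1.55 for CD79A (SE 0.91, adjusted p = 0.981 from edgeR). No lymphocyte gene had an unadjusted p below 0.05 or a DESeq2 call in this test.

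Across the 7 libraries the T cell genes moved together on log2(TPM + 0.1), with a Pearson r of 0.75 to 0.95 over their 10 pairs (highest for CD3D with CD2). The 6 pairs of B cell genes had r of -0.47 to 0.42, and the 20 pairs of a T and a B cell gene -0.82 to 0.44. The lowest was CD4 with MS4A1. All pairs share the same 7 libraries, their depth and the shift of TPM between the breeds described above. The T cell genes also share their direction between the depots. These values of r are therefore descriptions. The mean T cell profile was followed most closely, among 7372 varying genes, by ARID3A (r = 0.989), SERPINB9 (0.988), THRA (0.987), FCER1A (0.987) and CEP170B (0.987). SERPINB9 had 8.96 to 22.18 TPM in the GOM and 4.07 to 6.08 TPM in the ULB. The mean B cell profile was followed by ACTG2 (r = 0.918), KCNAB1 (0.900), ANKRD55 (0.885), MYBPHL (0.883) and HESX1 (0.868). The B cell genes shared little of a pattern, with a median r of 0.02 over their 6 pairs. CD79B, MS4A1 and PAX5 in this mean rest on 3 to 35 counts per library. In both profiles the genes named are the highest of 7372, so their r is high by selection. ACTG2 had 52.14 TPM in wild boar GOM library 2 and 41.08 TPM in the Bama pig ULB library, against 1.28 to 12.77 TPM in the other 5 libraries.

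Hi-C, which maps contacts along the folded genome, was available for the same 7 combinations of breed, depot and replicate. Its nuclei came from the fraction of fat tissue that holds the adipocytes, so it bears on lymphocytes little or not at all. A compartment value, positive in the gene-rich A and negative in the B compartment, was read in the 20-kb bin of each gene start. It was positive in all 7 libraries for 8 of the 9 genes, from 8.7 for CD8A to 60.2 for CD4, against 72.0% of 18725 protein-coding genes that were positive in all libraries. MS4A1 was in the B compartment in each library, from -43.7 to -25.7. CD3D and CD3E shared 1 topologically associating domain of 220 kb (chr9:45440001-45660000) in all 4 groups of breed and depot. CD2 lay in a domain of 560 kb in all 4 groups, whereas CD79A and CD79B were each in a domain in 1 of the 4 lists.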

How the data were processed

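Adipose RNA-seq values of 7 libraries were used, and the groups follow the labels. The authors quantified protein-coding genes of Sscrofa11.1 in the Ensembl annotation with kallisto, version 0.43.0 in the submitters' processing notes, and deposited estimated counts per gene, not normalized between libraries. The authors also deposited TPM values, scaled over transcripts that include some outside the gene list. For Hi-C, the authors deposited a compartment score per 20-kb bin and library, with mean 0 per chromosome and the sign set by gene density, and domain lists called on merged replicates. All 18 autosomes ended at the same base in the reference used here, and 0 columns were without a library.

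Symbols were matched for 14821 of 21280 identifiers. Estimated counts were rounded and tested with edgeR 4.0.16 (R 4.3.3, TMM), among genes with TPM above 0.1 in at least 2 of 7 libraries (for the breeds in the GOM, in both libraries of at least 1 breed). The standard error was taken as the absolute log2 fold change over the square root of F. Contrasts within a depot or breed other than GOM breed were taken from 1 fit of the 4 groups over 7 libraries. Called genes had a Benjamini-Hochberg adjusted p below 0.05 with a log2 fold change above 1 in size. DESeq2 1.42.0, limma 3.58.1, other filters and normalizations, a replicate block and leaving out each library were alternatives. Counts as small as 3 were read as the floor. Plots and ratios used Python 3.11.15, numpy 2.4.6, pandas 2.3.3, scipy 1.17.1 and matplotlib 3.10.9.

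The genes named are the 9 lymphocyte genes and, from each list of immune or mesothelial genes, up to 3 called between depots by size of change, or the 2 with the highest mean TPM (lists of other tissues are given by sums and counts). Some genes and sequences, and the list of genes that organise lymphoid tissue, are not reported here. The members and lists were chosen with earlier results of these data known. Likeness was Pearson r of log2(TPM + 0.1) with the mean profile, over genes with a TPM of at least 1 in a library and an SD of at least 0.5. The tests were tested on simulated data, in which DESeq2 had a larger share of false calls than edgeR in each run, and the share exceeded the nominal level in every DESeq2 run and in some edgeR runs. Replicates are separate animals, but whether a number marks 1 animal in both depots is not given in the sources used here. TPM, scores and domains carry no depth, and their precision is limited by the number of libraries.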

Additional observations from a re-analysis of the deposited data

How the results depend on the processing

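In GOM against ULB across both breeds the number of T cell genes called was 1, and it was 4 with DESeq2, 2 without the TPM filter, 0 with limma on log2(TPM + 0.1) or log2(TPM + 1), 2 with the replicate block, and 0 to 1 when 1 library was left out. In wild boar alone it was 0, and 1 with DESeq2, 1 without the TPM filter and 2 with the replicate block (CD2 and CD4), which also called 1 B cell gene (CD79A). In Bama pig alone it was 0, and 1 with DESeq2 and 1 with the replicate block (CD2). All other alternatives, upper-quartile normalization included, kept the number of calls of both sets. For the breeds in the GOM, the number of genes with both Bama pig libraries above both wild boar libraries was 2 T cell genes and 1 B cell gene, and 1 and 0 with TMM over 7 libraries (this setting was added once the data had been seen). The adjusted p of CD2 across both breeds ranged from 0.000332 to 0.18 over 14 alternatives and that of CD4 from 0.0028 to 0.191. No T cell gene changed its direction in that comparison. Leaving out 1 library gave 1.00 to 1.43 for CD3D, 0.55 to 1.61 for CD3E, 1.33 to 1.98 for CD2, 1.73 to 2.72 for CD4 and 1.12 to 1.50 for CD8A.

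Of the values of single genes under the alternatives, 452 kept their direction and call, 12 gained a call, 6 lost one and 26 reversed. The 6 lost calls were those of CD2 across both breeds. Across both breeds CD79B was 0.16 with the replicate block and -0.51 to 0.26 when 1 library was left out, and CD79A then ranged from -0.15 to 1.29. For the breeds in the GOM, MS4A1 was -0.099 and -0.021 with limma on log2(TPM + 0.1) and log2(TPM + 1). Leaving out 1 GOM library gave -0.75 to 0.19 for CD3D, -1.28 to 0.38 for CD3E, -0.36 to 1.80 for CD79A and -0.28 to 1.12 for MS4A1. In wild boar, CD79B was -0.107 and -0.029 with the 2 limma settings, and without 1 library the depot difference ran from -0.089 to 2.05 for CD79A, -0.49 to 0.81 for CD79B, -1.81 to 0.20 for MS4A1 and -0.99 to 0.84 for PAX5. In Bama pig, CD79A was 0.27 and 0.26 with the limma settings, CD79B was 0 with limma on log2(TPM + 1) and 0.077 with the replicate block, CD3E was -0.053 with the block, and without 1 library CD3E was -0.053 to 0.92 and CD79B -1.48 to 0.077. The cause of these changes was not tested. Contrasts that need the Bama pig ULB library could not be fitted without it.

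The number of all genes called moved with the setting: across depots from 628 to 1289 with DESeq2, 999 without the filter and 346 with limma on log2(TPM + 1). For the breeds in the GOM it moved from 4 to 167 with DESeq2. The replicate number was checked as a pairing where both depots had 2 libraries, in wild boar: the deviations of same-numbered libraries from their group means had a Pearson r of 0.154 over 17931 genes, so the pairing is not established. With the block the number of all genes called was 881 across depots and 1710 in wild boar. Within a breed this fit had almost as many coefficients as libraries, so its estimate of spread is weak. Its Bama pig values rest on replicate 2 alone, the only number there with a library of each depot. Whether the calls gained with the block come from pairing was not tested.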

Other observations

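Other gene groups were read for their breed difference in the GOM, where the lymphocyte genes gave no call. The 9 macrophage markers all had a positive log2 fold change of wild boar against Bama pig (median 0.75), but edgeR called none. An unadjusted p below 0.05 was found for 3, against 8% of all genes, and DESeq2 called 1, MARCO. This scavenger receptor had 3.57 and 3.48 TPM in Bama pig GOM and 63.37 and 13.69 TPM in wild boar GOM. Of 9 pan-leukocyte genes 5 were positive (median 0.03), with no call by edgeR or DESeq2 and none with an unadjusted p below 0.05. The liver and erythroid transcripts described above had the largest list medians in size in this comparison, and their part in the macrophage values was not tested.

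The following values were singled out after they were seen. CXCR5, the chemokine receptor that guides B cells into follicles, had 62 estimated counts in the Bama pig ULB library and at most 1 count in each of the other 6 libraries, so it did not pass the TPM filter and was not tested. MZB1, a chaperone of plasma cells, had 20 to 76 counts in the GOM libraries and 2 to 18 in the ULB libraries, with a log2 fold change of 1.87 that was not called (SE 0.78, adjusted p = 0.23 from edgeR). FCRL1, a receptor of B cells, had 1.57 and 2.23 TPM in Bama pig GOM, 2.38 and 0.51 in wild boar GOM, and 0.08 to 0.34 TPM in the ULB, and was called by DESeq2 alone (log2 fold change 2.70).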
